A study of Mus musculus with 24 samples.

Results

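The small leucine-rich proteoglycans are a family of secreted matrix proteins, and 10 of their genes were followed here out of 54532 genes counted in each sample: Fmod, Lum, Dcn, Bgn, Ogn, Prelp, Aspn, Omd, Chad and Podn. They were found by matching the Ensembl identifiers of the count tables to these symbols in the mouse GENCODE M21 annotation, and all 10 were present in all 24 samples. The set was chosen by the muscle counts of SN-011 against control, in which Fmod was already known to be lower. The muscle values of SN-011 against control are therefore given as a description without a p-value, and so are the levels of Fmod in muscle against other tissues. Other earlier results of these data, those from heart among them, were also known when the genes were chosen. The p-values below are therefore not independent of that choice.

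Each of these proteins carries a core of leucine-rich repeats that lies against collagen fibrils, and the family as a whole is known for setting how thick fibrils grow and how they pack in tendon, skin, cornea, cartilage and the wall of muscle bundles. Decorin, biglycan and asporin (class I) also bind growth factors of the TGF-beta family. Class II holds fibromodulin, lumican, prolargin (Prelp) and osteomodulin. Of these, fibromodulin, lumican and osteomodulin carry keratan sulfate or tyrosine sulfate in place of dermatan sulfate. Osteoglycin (class III), chondroadherin (class IV) and podocan (class V) stand further apart in sequence.

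All mice carried a knockout of Trex1, the DNA exonuclease that clears self-DNA from the cytosol, and no wild-type mice were among the samples. Such mice develop inflammation through cGAS and STING, and SN-011 is a small-molecule STING antagonist. Heart, stomach, skeletal muscle and tongue were taken, with 3 control and 3 SN-011 samples for each of these 4 tissues. The labels call the controls untreated and give SN-011 as 5 mg/kg, 3 times a week for 4 weeks, whereas the methods of the study describe mice a month old with another dose schedule and a vehicle injection, so dose and length of treatment are not settled here. Whole tissue was lysed, so a lower count can mean fewer cells of a type or less RNA in each cell, and the 2 cannot be told apart. Nothing in the labels ties a sample to a named mouse, and p-values measure the spread between these samples.

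Total counts ran from 14253416 to 18443329 per sample with a median of 16221409, which puts a count of 3 at 0.163 to 0.210 CPM (counts scaled to a common library total) before further scaling. The count of Trex1 was 0 throughout, which without a wild-type sample, and with Atrip lying across the same locus, is no check of the genotype. Some samples stood apart. The second SN-011 muscle sample (replicate 2) detected 11546 genes, while the other samples each detected 19798 or more. Control replicate 1 of each tissue carried 3060 to 13811 counts of Xist and at most 3 of the Y-linked Ddx3y, whereas every other sample had at most 20 and at least 825, so that sex differed within the control groups and not within the SN-011 groups.

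Most of the genes sit in clusters with other members of the family (positions in GRCm38). Dcn (chr10:97479609-97518143) and Lum (chr10:97565128-97572703) lie 47.0 kb apart on the plus strand, followed by Kera and Epyc. Aspn (chr13:49544443-49567565), Omd (chr13:49582462-49592822) and Ogn (chr13:49608046-49624501) follow Ecm2 on the plus strand, and the whole group lies within the bounds of Cenpp. Fmod (chr1:134037254-134048277, plus strand) and Prelp (chr1:133910304-133921414, minus strand) are 116 kb apart, and Optc ends 2.30 kb from Prelp. Bgn (chrX:73483602-73495933), Chad (chr11:94565047-94569127) and Podn (chr4:108014791-108096445) have no other member beside them. Exons of Prelp share 350 bases with Gm15851 on the other strand, which matters only if the counting ignored strand.

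The sequence just upstream of the annotated start is shown for Fmod, whose difference in muscle led to the choice of the genes, for its neighbour Prelp, whose muscle groups overlapped, and for Chad, which was highest in stomach. They come from RefSeq (GRCm38.p6), which held 8 of the 10 genes, at chr1:134037004-134037253 (plus strand), chr1:133921402-133921651 (minus strand) and chr11:94564797-94565046 (plus strand). Capitals mark the E-box CANNTG, the motif bound by basic helix-loop-helix factors, the tendon factor scleraxis among them.
Fmod: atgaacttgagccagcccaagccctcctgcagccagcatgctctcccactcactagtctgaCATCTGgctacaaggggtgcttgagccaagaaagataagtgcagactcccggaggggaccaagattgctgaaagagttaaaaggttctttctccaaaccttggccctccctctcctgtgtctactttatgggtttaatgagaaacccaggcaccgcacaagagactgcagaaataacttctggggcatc
Prelp: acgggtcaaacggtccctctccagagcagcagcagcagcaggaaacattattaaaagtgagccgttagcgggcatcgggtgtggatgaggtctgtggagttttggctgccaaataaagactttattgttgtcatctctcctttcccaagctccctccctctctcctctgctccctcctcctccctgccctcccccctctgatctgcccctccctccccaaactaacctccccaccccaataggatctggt
Chad: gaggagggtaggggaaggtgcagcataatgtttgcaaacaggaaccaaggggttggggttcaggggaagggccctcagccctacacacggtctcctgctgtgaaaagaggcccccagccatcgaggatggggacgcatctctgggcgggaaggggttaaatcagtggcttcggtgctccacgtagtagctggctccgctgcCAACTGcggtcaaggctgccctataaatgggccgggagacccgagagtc
Fmod and Chad held 1 E-box each and Prelp held 0, where 66.2% of 32851 promoter windows of the same length held at least 1. No window of the 8 genes held the interferon motifs GAS (TTCNNNGAA) or ISRE, found in 7.02% and 2.98% of all windows, nor the SMAD palindrome GTCTAGAC, found in 0.167%. Both strands were searched. These matches are a description of letters in a window.

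In control samples the family was made of different genes in each tissue. Per length (RPKM, counts scaled by exon length and library total), Dcn made up 50.1% ± 3.75 (SD, n = 3) of the summed level of the 10 genes in tongue and 36.1% ± 0.77 in muscle. Bgn led in heart with 34.5% ± 7.01, ahead of Dcn with 27.9% ± 3.84. In stomach Ogn led with 31.5% ± 8.93, ahead of Dcn with 18.8% ± 6.60. Chad, a cartilage protein that tethers cells to matrix, held 16.2% ± 9.57 there. Fmod was the second most abundant member in muscle, with 18.4% ± 2.36, and held at most 1.42% in the other tissues. Taking the longest transcript in place of all exons raised the share of Bgn in heart to 51.6% and put Bgn second in muscle with 18.6%, ahead of Fmod with 15.8%.

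**Figure D1:**
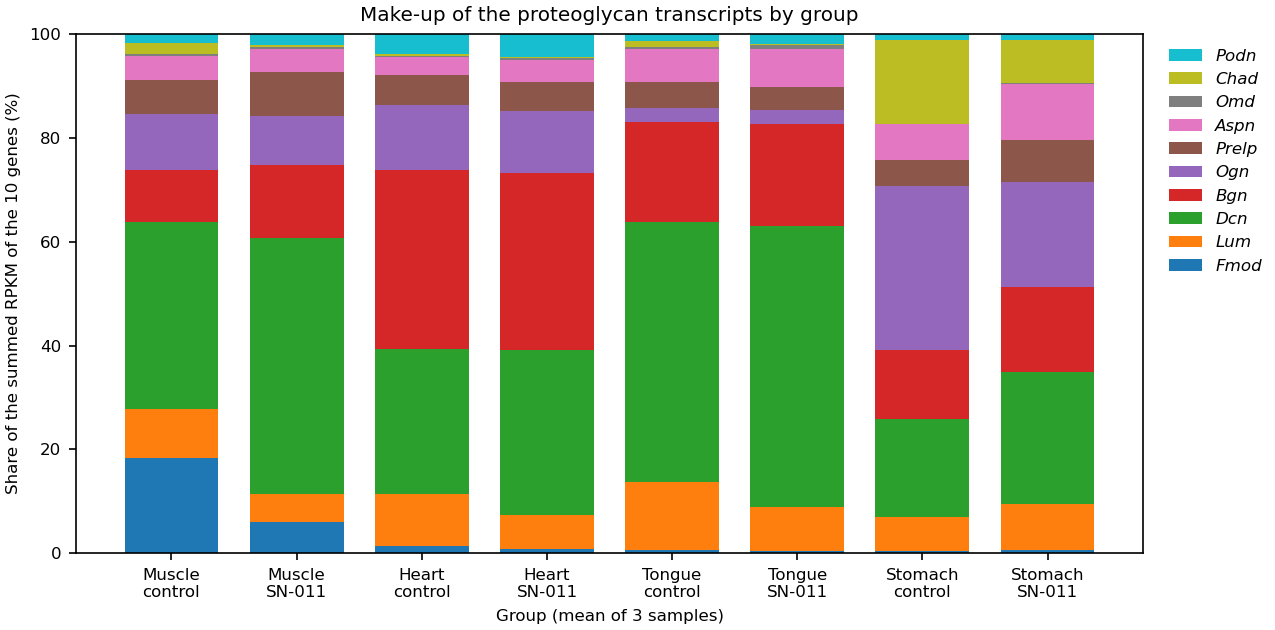
Stacked bars of the share of each gene in the summed RPKM of the 10 genes (%, y axis), as the mean of 3 samples in each of 8 groups (x axis). Fmod fills 18.4% of the muscle control bar and 6.13% of the muscle SN-011 bar. Ogn takes the largest space in the stomach control bar, followed by Dcn and then Chad.

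The levels of single genes across tissues were compared in the control samples with edgeR's quasi-likelihood test and Benjamini-Hochberg adjustment. In this comparison many genes of any kind differ, and the share of all genes that passed stands beside each count. Between heart and stomach 8 of 10 members passed (46.7% of all genes), 7 of them higher in heart. Between heart and tongue 6 of 10 passed, all higher in heart (32.3% of all genes), and between stomach and tongue 3 of 10 passed (40.6%). Of the 9 members tested against muscle, 3 differed from heart (38.9%), 5 from stomach (56.7%) and 4 from tongue (43.3%).

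Among the class I genes, Bgn, which also signals to innate immune receptors when set free from matrix, was highest in heart at 944, 521 and 677 CPM. It stood at 67.3 to 203 CPM in the control samples of the other tissues, with no overlap with heart. The log2 difference of heart to the next tissue, tongue, was 2.53 ± 0.42 (SE, adjusted p = 0.000996), and tongue, muscle and stomach did not differ beyond their spread. Dcn, a binder of collagen and TGF-beta, was at 508, 527 and 592 CPM in heart and at 391, 407 and 467 CPM in muscle. Its order was heart, muscle, tongue and stomach, and no neighbours in that order passed the test, although heart and stomach did (log2 difference 1.73 ± 0.40, adjusted p = 0.00374, and 0.0912 without replicate 2). Heart and muscle passed for Dcn with scaling by library size alone (adjusted p = 0.0452). Aspn, an inhibitor of TGF-beta, stood at 8.88 to 33.9 CPM in all 12 control samples, and no tissue pair passed. Without replicate 1, the sample with Xist counts, Aspn passed between tongue and heart (adjusted p = 0.0195), stomach (0.0104) and muscle (0.0174).

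Among the class II genes, Fmod, which guides fibril assembly in tendon, spanned the widest range. It was at 101, 136 and 127 CPM in the muscle controls, 16.2, 16.2 and 14.7 CPM in heart, 2.94, 2.55 and 1.32 CPM in tongue and 1.45, 1.46 and 3.20 CPM in stomach. The mean in muscle was 7.74 times that in heart and 59.5 times that in stomach. These ratios depend on the TMM scaling, and with library size alone the control means were 79.5 CPM in muscle and 18.4 CPM in heart. Muscle and heart overlapped with no other tissue, and tongue and stomach overlapped with each other. Heart was above tongue by 2.79 ± 0.34 on the log2 scale (adjusted p = 0.000124). Lum, known from the cornea, ran from 82.3 ± 19.1 CPM in heart to 23.2 ± 7.81 in stomach, and no neighbours in its order passed. Prelp, which binds heparan sulfate of basement membranes, ran from 69.8 ± 5.83 CPM in heart through muscle and stomach to 19.1 ± 9.98 in tongue, again with no neighbours past the threshold. Muscle and stomach passed for Prelp with the replicate number as a block (adjusted p = 0.0447), without replicate 1 (0.00244) and with no filter (0.0491). With scaling by library size alone, heart and muscle passed for Prelp (adjusted p = 0.00799) and for Lum (0.00387). Omd, a bone matrix gene, stayed at or under 2.27 CPM in the controls and had counts of 0, 1 and 4 in the stomach controls.

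Ogn, a small proteoglycan of class III, was near the same level in stomach (121 ± 60.7 CPM) and heart (107 ± 4.30), and the log2 difference to tongue was 2.79 ± 0.52 from muscle (adjusted p = 0.00118) and 3.86 ± 0.55 from stomach (adjusted p = 0.000207). Chad was at 40.8, 48.5 and 18.5 CPM in the stomach controls and 4.26, 8.99 and 9.66 CPM in muscle. Stomach was above muscle by 2.16 ± 0.66 (log2, adjusted p = 0.0152), and muscle was above heart by 2.24 ± 0.70 (adjusted p = 0.0239). The first call was lost without replicate 2 (adjusted p = 0.0550), and the second without replicate 3 (0.194) and with scaling by library size alone (0.0927). The markers of gastric glands were also present outside stomach, at a summed 8.20 to 833 CPM in the control samples of heart, muscle and tongue against 0 to 18.5 in their SN-011 samples. In the tongue controls Chad was at 0.285, 2.27 and 1.59 CPM beside 28.1, 833 and 701 CPM of these markers. In the heart controls it was at 0.786, 3.32 and 0.912 CPM beside 8.20, 696 and 63.7, and the muscle controls had 36.8, 436 and 197 CPM of the markers. Their part in the Chad levels outside stomach was not tested. Podn, the class V gene described in vessel wall and kidney, was highest in heart (37.8, 68.9 and 59.4 CPM), above muscle by 1.88 ± 0.38 (log2, adjusted p = 0.00222, and 0.0567 without replicate 2).

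**Figure D2:**
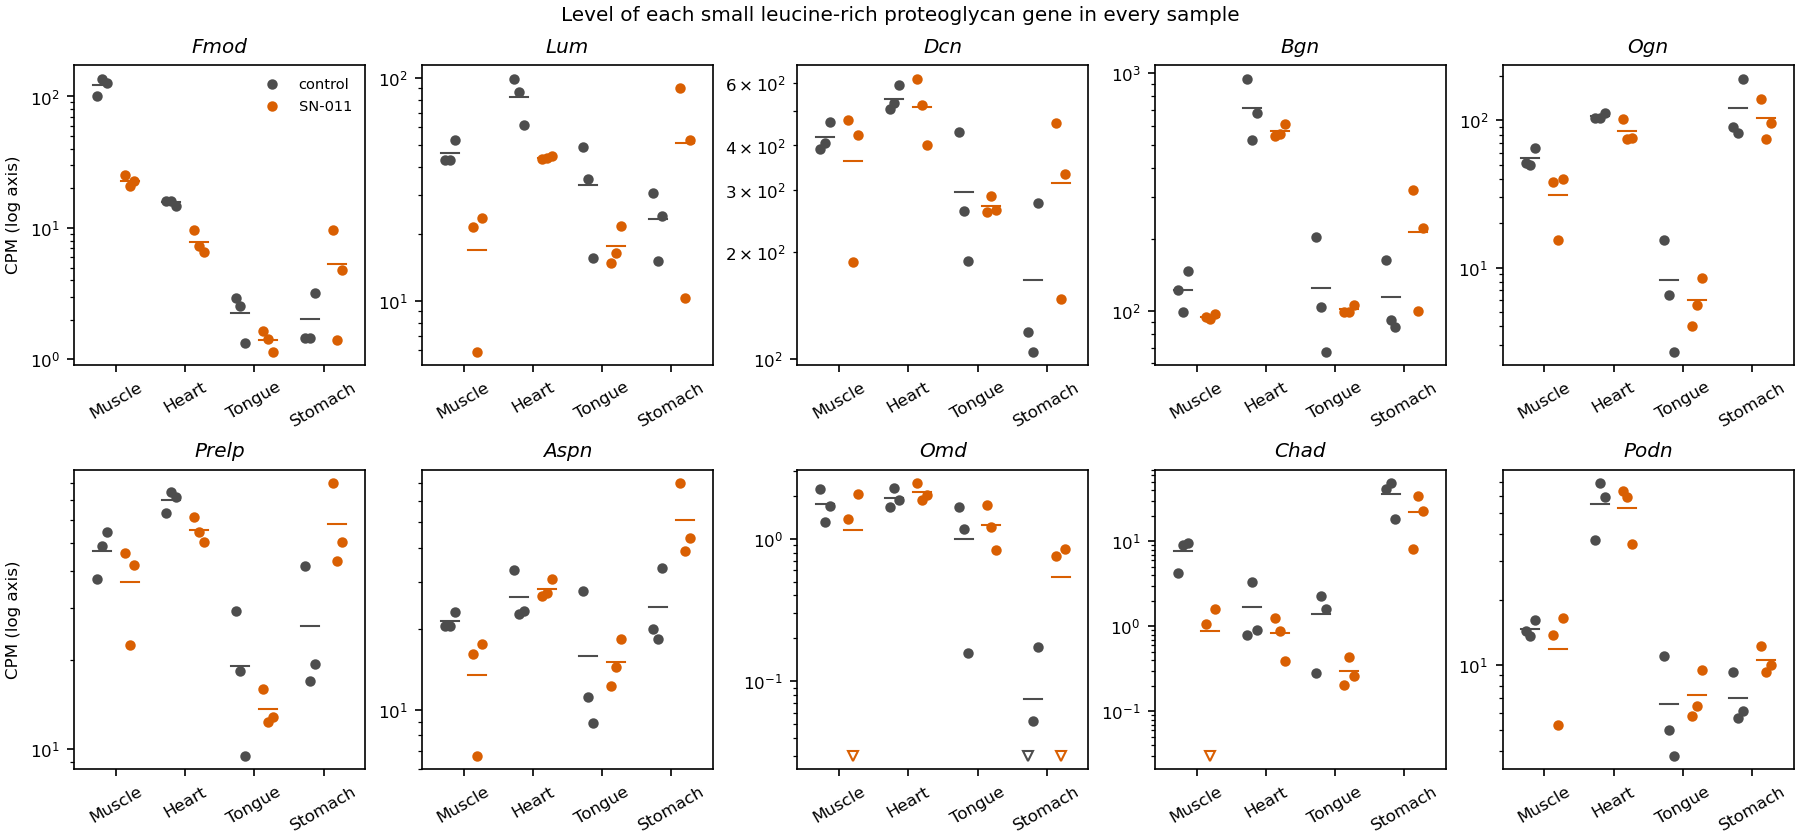
Level of each of the 10 genes in every sample (CPM, log axis) by tissue (x axis), with control samples in grey, SN-011 samples in orange and short lines at the means of 3. Open triangles mark samples with 0 counts. Fmod steps down from muscle to heart to tongue and stomach in the controls, and its 3 SN-011 samples lie below all controls in muscle and in heart.

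In muscle, Fmod was at 101, 136 and 127 CPM in the controls and 25.2, 20.7 and 22.7 CPM after SN-011. The groups were far apart, and the fitted log2 fold change was -2.32 ± 0.15 (SE), a ratio of control to SN-011 of 4.98. This is the difference for which the genes were chosen. Across 14 alternative settings it lay between -2.55 and -2.24, and without SN-011 replicate 2 it was -2.33. Over all genes, 2 of 14198 passed adjusted p 0.05 in this comparison (0.0141%), 1 lower and 1 higher (0.00704% each), with 2095 at an unadjusted p under 0.05. Fmod is among them by the way it was chosen, which is no test of it. The higher gene was Cdkal1, a tRNA-modifying enzyme, at 22.3 ± 2.67 CPM in controls and 83.5 ± 9.47 after SN-011. The count of genes moved from 2 to 1103 when SN-011 replicate 2 was left out, to 880 with DESeq2 and to 442 with edgeR's exact test.

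The fitted fold change was negative for all 10 members in muscle (55.5% of all genes), with a median of -0.59 against -0.08 over all genes tested. In 6 of 10 every SN-011 sample lay below every control, where 21.6% of all genes did. They were Fmod, Lum, Bgn, Ogn, Aspn and Chad, and the same 6 remained without SN-011 replicate 2 (26.7% of all genes), with Prelp added without control replicate 1 (30.7%). Without SN-011 replicate 2 the fold changes of Dcn and Podn turned positive, at 0.10 and 0.048. Lum was at 42.9, 42.7 and 53.0 CPM in controls and 21.4, 5.93 and 23.6 after SN-011. Its log2 fold change was -1.40 ± 0.43, with replicate 2 the lowest. Chad was at 4.26, 8.99 and 9.66 CPM in controls and 1.07, 0 and 1.58 after SN-011, from 10, 0 and 17 counts. Its log2 fold change of -3.06 ± 1.15 rests on these few counts. Chad passed the filter on low counts through the controls, where it is high, and Fmod led to the choice of the genes. Their places among the 6 are therefore no test. Ogn was at 51.0, 50.1 and 65.4 CPM against 38.3, 15.3 and 40.1 (-0.77 ± 0.31), and Aspn at 20.4, 20.5 and 23.1 CPM against 16.1, 6.72 and 17.6 (-0.61 ± 0.33).

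Dcn, the member with the highest share in muscle, was at 391, 407 and 467 CPM in controls and 471, 188 and 427 after SN-011, so that replicates 1 and 3 lay within or above the controls and only replicate 2 lay below. The log2 fold change of Dcn was -0.16 ± 0.27. Bgn was at 122, 98.3 and 147 CPM against 94.0, 91.9 and 96.5, a narrow gap with a log2 fold change of -0.28 ± 0.17. Prelp, Podn and Omd had fold changes of -0.28, -0.26 and -0.58 with overlapping groups. In the make-up of the family, the share of Fmod was 18.4% ± 2.36 of summed RPKM in controls and 6.13% ± 2.21 after SN-011, and that of Dcn 36.1% ± 0.77 and 49.3% ± 4.41.

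Markers of tendon cells were lower in the same muscle samples. The summed level of 7 tenocyte markers was 183 to 196 CPM in controls and 39.1 to 78.8 after SN-011, and the 6 that passed the filter on low counts had every SN-011 sample below every control (21.6% of all genes). SN-011 replicate 2 had 0 counts of 4 of the 7, so some passed the filter through the controls where they are high. Among them Tnmd, a membrane protein of tenocytes, had means of 11.0 and 1.88 CPM, Tnc 12.3 and 0.87, and Kera, itself a member of the wider family, 12.9 and 2.96. Fibroblast markers summed to 364 to 465 CPM against 165 to 294. Of the 6 that passed the filter, 5 had negative fold changes (55.5% of all genes). In 3 of these 6 every SN-011 sample lay below every control (21.6% of all genes). Chondrocyte markers summed to 0.937 to 3.39 CPM against 0 to 1.17, with the cartilage gene Acan at or under 0.34 CPM in every muscle sample. Markers of skeletal muscle fibres summed to 217670 to 248439 CPM in controls and 263673 to 297929 after SN-011. Their part in the lower Fmod was not tested, and the amount of tendon, fascia and muscle in each sample cannot be told apart from a change within cells.

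**Figure D3:**
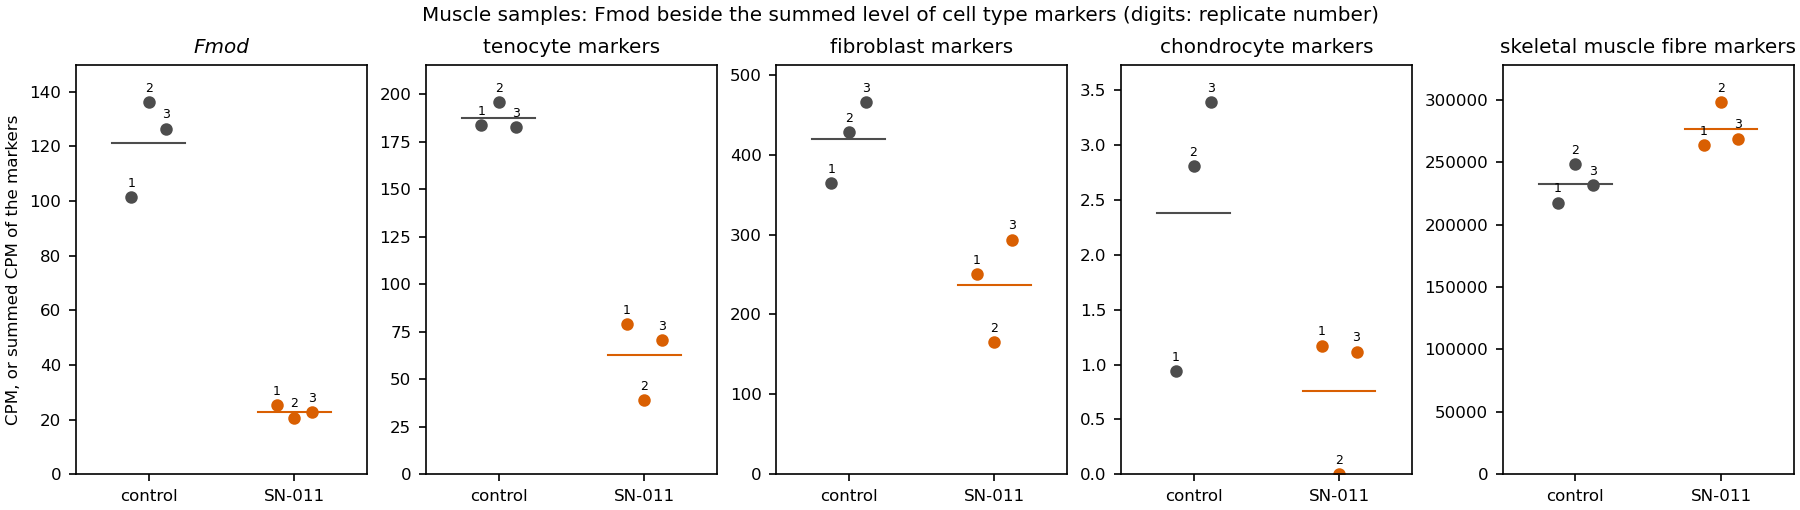
Fmod (CPM) and the summed CPM of tenocyte, fibroblast, chondrocyte and skeletal muscle fibre markers in each of the 6 muscle samples (y axes start at 0), control in grey and SN-011 in orange, with the replicate number at each point and lines at the means of 3. Fmod and the sums of tenocyte and of fibroblast markers are lower in all 3 SN-011 samples, with tenocyte markers at 39.1 to 78.8 CPM against 183 to 196. The sum of muscle fibre markers is higher.

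In heart, Fmod and Lum fell. Earlier results from heart were also known when the genes were chosen, so these p-values are not independent evidence. Fmod was at 16.2, 16.2 and 14.7 CPM in controls and 9.70, 7.29 and 6.57 after SN-011, with no overlap. The log2 fold change was -0.99 ± 0.18 (edgeR quasi-likelihood test, adjusted p = 0.0481), a ratio of control to SN-011 of 1.98. Lum was at 99.0, 86.3 and 61.5 CPM in controls and 43.5, 43.6 and 44.6 after SN-011. The SN-011 samples were tight and lay below all controls, with a log2 fold change of -0.90 ± 0.16 (adjusted p = 0.0481) and a ratio of 1.86. These were 2 of 10 members, where 137 of 16151 genes passed (0.848%), 53 of them lower and 84 higher after SN-011. Scaled by library size alone, 65 of 249 genes were higher and Fmod and Lum still passed. Both sat close to the threshold. Adjusted p for Fmod was 0.0700 without control replicate 1, 0.0995 without control replicate 3, 0.118 to 0.235 without 1 of the SN-011 replicates and 0.693 in a joint fit of all 24 samples. For Lum it was 0.0590 without control replicate 1, 0.117 to 0.235 without 1 of the SN-011 replicates and 0.875 in the joint fit. The log2 fold change stayed between -1.17 and -0.89 for Fmod and between -1.08 and -0.76 for Lum in all 14 settings.

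Ogn and Prelp also had every SN-011 heart sample below every control, which makes 4 of 10 members, where 13.4% of all genes did so. Prelp was at 63.3, 74.5 and 71.6 CPM against 61.4, 54.5 and 50.3 (log2 fold change -0.33 ± 0.12, adjusted p = 0.160), and Ogn at 105, 104 and 111 CPM against 103, 75.3 and 75.4 (-0.33 ± 0.14, adjusted p = 0.214). Neither passed. The same 4 were below without control replicate 1, where 18.8% of all genes were. Dcn was at 508, 527 and 592 CPM against 616, 521 and 400, with a log2 fold change of -0.08 ± 0.17 (adjusted p = 0.834). Bgn was at 944, 521 and 677 CPM against 542, 552 and 608 (-0.32 ± 0.20, adjusted p = 0.384), and control replicate 1 set most of that gap. Aspn, Omd and Podn had fold changes of 0.10, 0.14 and -0.06 with overlapping groups. Chad was under 3.32 CPM in all heart samples. Fold changes were negative in 8 of 10 members (51.4% of all genes), with a median of -0.32 against -0.01 over all genes.

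Fibroblast markers summed to 348 to 403 CPM in control hearts and 261 to 307 after SN-011, with 2 of 7 genes lower and 1 higher in every SN-011 sample (13.4% and 13.7% of all genes). Cardiomyocyte markers summed to 19925 to 28025 CPM against 28732 to 35019, and tenocyte markers to 70.3 to 84.0 against 52.9 to 79.8, with Kera at 0 counts in every heart sample. The part of these shifts in the lower Fmod and Lum was not tested.

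In stomach 7 of 9 members had positive fold changes and Chad and Ogn negative ones, and none passed. Prelp was at 41.9, 17.0 and 19.4 CPM in controls and 79.8, 43.5 and 50.5 after SN-011, with a log2 fold change of 1.20 ± 0.39 (adjusted p = 0.123). Aspn was at 20.0, 18.3 and 33.9 CPM against 70.0, 38.9 and 43.7 (1.11 ± 0.34, adjusted p = 0.115). These were the 2 of 9 members with every SN-011 sample above every control, where 17.0% of all genes were, and they became 4 of 9 with Bgn and Podn when control replicate 1 was left out (24.4% of all genes). Both Prelp and Aspn passed under 3 of 14 settings, at adjusted p 0.0380 to 0.0472. The other members overlapped. Fmod was at 1.45, 1.46 and 3.20 CPM against 9.60, 1.41 and 4.81 (1.39 ± 0.71, adjusted p = 0.261), and Lum at 30.6, 15.04 and 24.1 CPM against 89.9, 10.3 and 52.4 (1.18 ± 0.64, adjusted p = 0.292). In both, SN-011 replicate 2 was as low as the controls and replicate 1 was the highest. Fmod passed in the joint fit of all 24 samples (adjusted p = 0.0486).

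Dcn in stomach was at 119, 105 and 276 CPM in controls and 461, 148 and 333 after SN-011, and Bgn at 164, 91.6 and 85.6 against 321, 99.9 and 223. Their log2 fold changes were 0.94 ± 0.53 (adjusted p = 0.307) and 0.97 ± 0.46 (adjusted p = 0.232), and replicate 2 was again the lowest of the SN-011 samples. Chad was at 40.8, 48.5 and 18.5 CPM against 8.17, 34.6 and 23.0 (-0.67 ± 0.51, adjusted p = 0.447), and Ogn at 90.7, 82.1 and 191 CPM against 139, 75.3 and 95.8 (-0.21 ± 0.41, adjusted p = 0.783). Omd was too low to be tested. Fold changes were negative in 2 of 9 members (49.8% of all genes), with a median of 0.97 against 0.00 over all genes. No gene of 17031 passed in stomach with edgeR's quasi-likelihood test (0%), with 4183 at an unadjusted p under 0.05, whereas DESeq2 called 2389 and edgeR's exact test 1807.

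The stomach samples also differed in their make-up. Markers of smooth muscle summed to 1044 to 5654 CPM in controls and 4054 to 7772 after SN-011, those of squamous epithelium, which lines the forestomach of the mouse, to 89.1 to 202 against 361 to 1175, and those of gastric glands to 12081 to 48371 against 3589 to 15349. Fibroblast markers summed to 157 to 245 CPM against 179 to 381. Chad stood at 0.000844 to 0.00228 of the summed gastric level in the 6 stomach samples. The part of these differences in the higher Prelp and Aspn values was not tested.

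In tongue no member passed, and no group was fully separated from its control. Fmod was at 2.94, 2.55 and 1.32 CPM in controls and 1.63, 1.43 and 1.15 after SN-011 (log2 fold change -0.70 ± 0.40, adjusted p = 0.489), and Lum at 49.1, 35.1 and 15.6 CPM against 14.7, 16.3 and 21.6 (-0.92 ± 0.39, adjusted p = 0.399). Fold changes were negative in 7 of 9 members (51.5% of all genes), with a median of -0.30 against -0.01 over all genes. The controls were spread wide, with replicate 1 the highest and replicate 3 the lowest in Lum, Dcn, Bgn, Ogn, Prelp, Aspn and Podn, while the SN-011 samples lay closer together. Dcn was at 438, 262 and 189 CPM against 259, 288 and 262. The summed level of all 10 genes was 779, 447 and 299 CPM in the tongue controls and 415, 445 and 442 CPM after SN-011. Without control replicate 1, all SN-011 samples of Aspn and Podn lay above the controls (23.6% of all genes), and the fold changes of Dcn, Bgn, Ogn and Aspn turned positive, at 0.27, 0.26, 0.40 and 0.60. The share of all genes with fully separated groups was also the lowest of the 4 tissues, at 7.92% below and 9.79% above. No gene of 16587 passed (0%), with 2074 at an unadjusted p under 0.05, 418 by DESeq2 and 246 by edgeR's exact test.

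**Figure D4:**
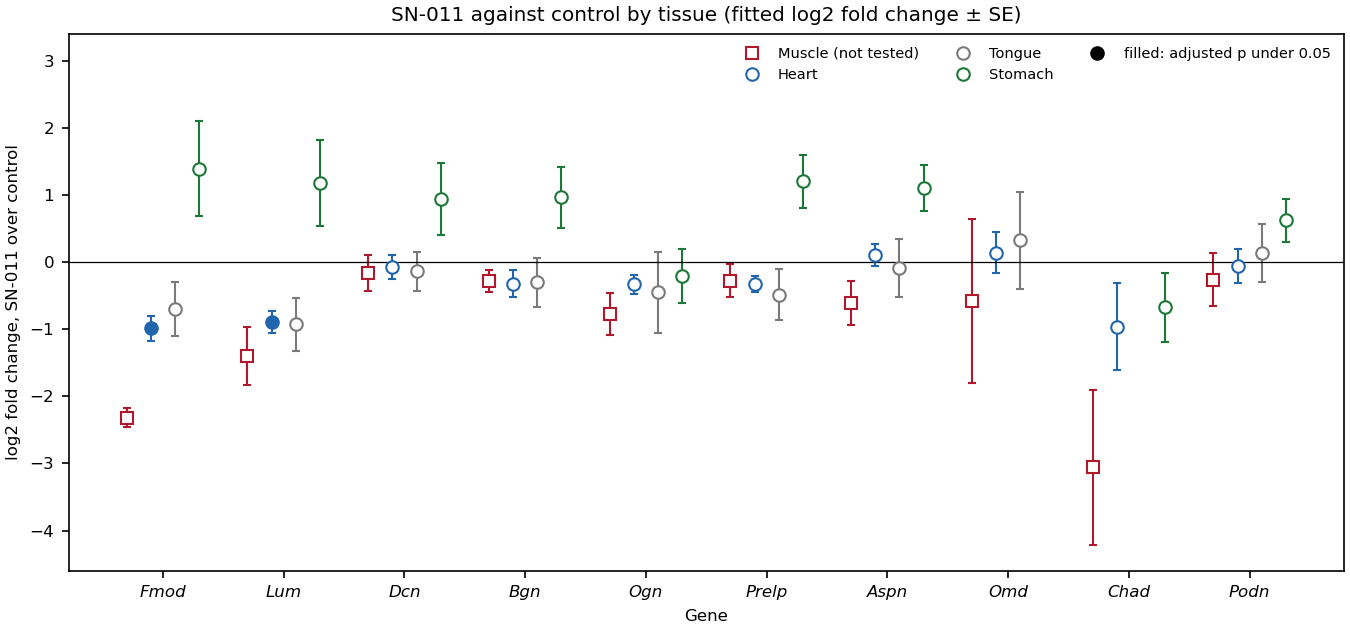
Fitted log2 fold change of SN-011 over control ± SE (y axis) for each gene (x axis) in muscle (squares, not tested), heart, tongue and stomach (circles), from 3 against 3 samples each. Filled circles passed adjusted p 0.05. Fmod and Lum in heart are the filled ones, and the stomach values of Fmod, Lum, Dcn, Bgn, Prelp, Aspn and Podn lie above 0, though none passed.

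Whether the response differed between tissues was tested as an interaction in a fit of all 24 samples, leaving out muscle. Earlier results from heart were known when the genes were chosen, so p-values of pairs with heart are not independent evidence. No member passed in any of the 3 pairs. The nearest was Fmod between heart and stomach, with a difference of log2 fold changes of -2.35 ± 0.62 (adjusted p = 0.0514), where 396 of 19731 genes passed (2.01%). It was past the threshold without muscle SN-011 replicate 2 (0.0290) and with scaling by library size alone (0.0441), and at 0.145 without control replicate 1 of each tissue. Prelp differed by -1.49 ± 0.51 (adjusted p = 0.132) and Lum by -2.04 ± 0.76 (adjusted p = 0.164). Between stomach and tongue the values were 2.05 ± 0.65 for Fmod and 1.63 ± 0.52 for Prelp (adjusted p = 0.122 and 0.121), where 0.821% of all genes passed. Between heart and tongue no gene passed (0%), with 559 at an unadjusted p under 0.05. The member values there ran from -0.30 to 1.20.

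Neighbours on a chromosome were set side by side. On chromosome 1, Fmod had fold changes of -2.32 and -0.99 in muscle and heart, while Prelp had -0.28 and -0.33. In tongue and stomach they were closer, at -0.70 and 1.39 for Fmod and -0.49 and 1.20 for Prelp. On chromosome 10, Lum had -1.40 and -0.90 in muscle and heart, while Dcn, the gene before it, had -0.16 and -0.08. In tongue and stomach Lum had -0.92 and 1.18 and Dcn -0.14 and 0.94. Kera, which follows Lum and was picked out after its values were seen, was at 12.9 ± 2.15 CPM in the muscle controls and 2.96 ± 2.72 after SN-011. Epyc stayed at or under 1.19 CPM everywhere. On chromosome 13, Aspn, Omd and Ogn had muscle values of -0.61, -0.58 and -0.77, and Ecm2, a related matrix gene before them, had -0.22. Heart values were 0.10, 0.14 and -0.33 for Aspn, Omd and Ogn and -0.34 for Ecm2. The differences between neighbours were not tested.

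**Figure D5:**
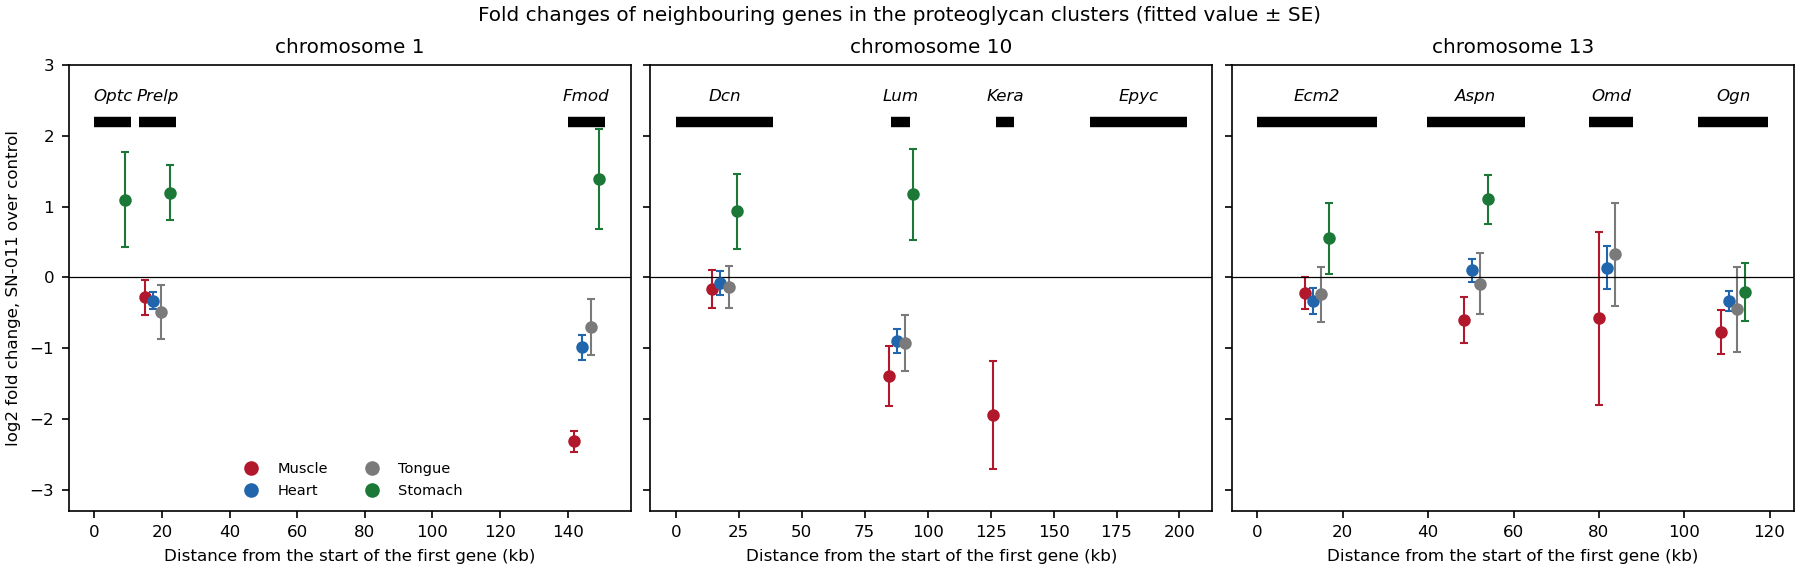
Fitted log2 fold change of SN-011 over control ± SE (y axis) for the genes of the clusters on chromosomes 1, 10 and 13 against distance from the start of the first gene (kb, x axis), with bars for gene spans and colours for tissues. Fmod and Prelp, 116 kb apart, differ most in muscle (-2.32 and -0.28), and so do Lum and Dcn (-1.40 and -0.16).

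Other genes of the matrix were counted by lists. None of the listed genes outside the 10 passed in heart, stomach or tongue with edgeR's quasi-likelihood test, and muscle is given as a description. Of the relatives of the family outside the 10, 4 of 5 tested were lower in every SN-011 muscle sample, where 21.6% of all genes were. They include Tsku (4.38 ± 0.66 CPM in controls and 1.67 ± 1.47 after SN-011), a secreted inhibitor of growth factors, and Chadl (3.42 ± 0.93 and 1.09 ± 0.95). Genes this low after SN-011 could pass the filter on low counts through the controls, where they are high. SN-011 replicate 2 also detected only 11546 genes, so this count of relatives is a description and no test. Fibrillar and fibril-associated collagens are the partners that these proteoglycans coat. Their fold changes were negative in 8 of 8 in heart (median -0.77, 51.4% of all genes) and 9 of 9 in muscle (-1.09, 55.5%). In tongue 7 of 8 were negative (-0.41, 51.5%), and in stomach 0 of 9 (0.68, 49.8%). Every SN-011 sample lay below every control for 7 of 8 in heart (13.4% of all genes) and 8 of 9 in muscle (21.6%). In tongue this held for 0 of 8 (7.92%) and in stomach for 0 of 9 (16.1%). Col3a1 was at 774 ± 223 CPM in control hearts and 337 ± 84.9 after SN-011 and at 796 ± 208 and 320 ± 109 in muscle. The 3 collagen VI genes had medians of -0.70, -1.25, -0.39 and 0.32 in heart, muscle, tongue and stomach. Col6a3, a microfibril chain that binds decorin and biglycan, did not pass in heart (57.5 ± 14.4 and 25.1 ± 7.60 CPM, log2 fold change -1.19 ± 0.23, adjusted p = 0.0544). For both collagen lists the medians ran in the order muscle, heart, tongue and stomach, as they did for the 10 proteoglycans, and the lists share all samples with them.

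Enzymes that finish collagen and the sugar chains were followed too. Crosslinking and maturation genes had medians of -0.24 in heart, -0.43 in muscle, 0.04 in tongue and 0.99 in stomach, with Serpinh1, the collagen chaperone, at 261 ± 22.1 and 187 ± 46.8 CPM in heart. Genes for the glycosaminoglycan linkage and dermatan sulfate, which build the chain on decorin and biglycan, had medians of -0.48, -0.36, -0.11 and 0.44. Genes for keratan sulfate, the chain on fibromodulin and lumican, had medians of -0.18, -0.04, -0.10 and 0.63, and B4galt1, a galactosyltransferase, was at 78.5 ± 5.93 CPM in muscle controls and 189 ± 27.1 after SN-011. TGF-beta ligands, receptors and latency genes had medians of -0.24, -0.43, -0.12 and 0.72, and TGF-beta response genes -0.10, -0.25, -0.13 and 0.49. Matrix proteases had medians of -0.19, -0.59, -0.26 and 1.21, and the other matrix proteins of tendon and loose connective tissue -0.43, -0.45, -0.22 and 0.94.

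Macrophage markers summed to 765 to 985 CPM in control hearts and 682 to 1017 after SN-011, and to 320 to 385 and 331 to 458 CPM in muscle. Endothelial markers summed to 663 to 765 against 577 to 697 CPM in heart and 358 to 434 against 220.5 to 304 in muscle. Osteoblast markers reached at most 5.15 CPM and adipocyte markers ran from 7.12 to 443 CPM in muscle controls and from 55.5 to 635 after SN-011.

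The genes with the pattern most like Fmod over the 24 samples were sought among 15829 genes with a mean of at least 1 CPM, by the root mean square difference of centred log2(CPM + 1). They were Gm49477, Satb1, Smoc2, Arhgap20 and Stbd1, with differences of 0.74 to 0.79. Smoc2, a matricellular protein, was at 177 CPM in muscle controls, 114 in muscle after SN-011, 58.7 in control heart and 18.03 in control tongue. The closest member, Prelp, ranked 1783 with a difference of 1.53. The genes most like Dcn were Cav1, Cep170, Stx2, Cmtm3 and P4ha1, at 0.31 to 0.34, and Omd ranked 8 at 0.35. P4ha1, a prolyl hydroxylase of collagen, was at 61.7 CPM in control heart, 64.2 in muscle, 30.5 in tongue and 17.6 in stomach. Likeness here is that of levels across tissues and treatments, and Omd lies near 0 to 2.45 CPM, which brings its values close together after the addition of 1.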

How the data were processed

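Polyadenylated RNA was sequenced from 4 tissues of Trex1 knockout mice, in 3 control and 3 SN-011 samples each. The deposited files hold raw counts per gene. The authors made them from reads aligned with HISAT2 to mm10, per the labels with HTSeq and per the methods of the study with featureCounts. The methods describe strand-specific libraries and give no strand setting for the counting. Versions are not given in the sources used here. Symbols, positions and exon lengths came from GENCODE M21, which held 54495 of 54532 identifiers. Samples had 14253416 to 18443329 counts. Precision is limited by the 3 samples a group and, for genes of few counts such as Omd, by counting error too.

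Each tissue was fitted on its own with edgeR 4.0.16 (R 4.3.3) after filterByExpr (minimum count 10, total 15) and TMM scaling, by its quasi-likelihood test, with p-values adjusted after Benjamini-Hochberg across every gene tested and a threshold of 0.05. Control samples of all tissues were fitted together for tissue pairs, and all 24 samples for interactions. CPM used TMM-scaled totals of the joint filter, so a ratio of means can differ from a fitted fold change, and RPKM used merged exons. The scripts were tested on simulated data. Alternatives were scaling by library size or DESeq2 size factors, no filter, at least 10 counts in every sample, the joint fit, DESeq2 1.42.0, edgeR's exact test, a replicate block and leaving out each replicate. Counts of separated groups without the samples that stood apart were added after seeing the data.

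The labels do not say that a replicate number marks a mouse, and the tests treat all samples as separate. Correlations of the deviations of same-numbered control and SN-011 samples averaged -0.02 in heart, 0.06 in stomach, 0.04 in muscle and -0.26 in tongue. Between tissues, same-numbered controls averaged 0.23 (-0.14 to 0.52) and differently numbered ones -0.11, and SN-011 samples 0.06 and -0.03. With Xist in control replicate 1 of each tissue, tissues of the same number may share a mouse, which the tests between tissues leave out. The members and lists were chosen with earlier results of these data known. Named genes were the 10 members, of other lists those past the threshold or otherwise up to 4 of highest mean CPM, the 5 nearest in pattern to Fmod and to Dcn, and genes past the threshold in muscle. Kera and the marker genes were named besides, after their values were seen.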

Additional observations from a re-analysis of the deposited data

Results flagged for a closer look

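Prelp lay on opposite sides of its controls in heart and stomach. Every SN-011 heart sample was below every control (log2 fold change -0.33 ± 0.12) and every SN-011 stomach sample was above (1.20 ± 0.39). Groups were separated in these directions for 13.4% and 17.0% of all genes. The interaction of -1.49 ± 0.51 did not pass (edgeR quasi-likelihood test, adjusted p = 0.132), where 2.01% of all genes did. The interaction passed with scaling by library size alone (adjusted p = 0.0388, with 596 of 19731 genes passing). It also passed without control replicate 1 of each tissue (0.0286, with 392 of 20291 genes).

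Aspn lay above its controls in every SN-011 stomach sample (log2 fold change 1.11 ± 0.34) and below them in every SN-011 muscle sample (-0.61 ± 0.33). Groups were separated in these directions for 17.0% and 21.6% of all genes, and Aspn did not pass in stomach (edgeR quasi-likelihood test, adjusted p = 0.115). In muscle the SN-011 samples ran from 6.72 CPM in replicate 2 to 17.6, against 20.4 to 23.1 in controls. The difference between these tissues was not tested.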

How the results depend on the processing

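The counts of genes past the threshold depended strongly on the method, while the member values mostly kept their direction. In heart, 137 genes passed, against 249 with library size alone, 1888 with no filter, 265 with at least 10 counts in every sample, 1 in the joint fit, 1361 with DESeq2, 912 with the exact test and 1 to 787 without 1 replicate. In stomach, 0 passed, against 1368, 126, 2738, 2389 and 1807 with no filter, at least 10 counts, the joint fit, DESeq2 and the exact test, and 0 to 64 without 1 replicate. In muscle, 2 passed, against 1 with library size alone and 1 with DESeq2 size factors, then 110, 75, 474, 880 and 442 in the order given for stomach, and 0 to 1103 without 1 replicate. In tongue, 0 passed, against 18 with no filter, 4 in the joint fit, 418 with DESeq2, 246 with the exact test and 0 to 2135 without 1 replicate. Without 1 replicate the tissue pairs gave 3091 to 6417 genes for heart and muscle, 4712 to 7821 for heart and stomach, 2296 to 5667 for heart and tongue, 3758 to 7909 for muscle and tongue, 6727 to 9934 for stomach and muscle and 3723 to 7005 for stomach and tongue. Interactions of heart and stomach gave 396 genes, against 596 with library size alone and 1177 without muscle SN-011 replicate 2. Those of stomach and tongue gave 162, against 308, 815 and, without control replicate 1 of each tissue, 425, and those of heart and tongue 0, against 1 without control replicate 1. The cause of these differences was not tested.

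Scaling by library size alone moved the median of all genes to -0.16 in heart, -0.31 in muscle and 0.18 in stomach. It turned 65 of 249 heart calls higher (84 of 137 with TMM), and 8442 of 9621 genes higher in heart than muscle (3642 of 7113), 8733 of 11368 higher in stomach than muscle (5238 of 10381), 1251 of 9280 higher in muscle than tongue (3899 of 7925), and 112 of 596 interactions of heart and stomach positive (237 of 396). Under it Fmod in muscle was -2.55 and Bgn -0.52. In control tissue pairs it added calls for Lum, Dcn, Ogn and Prelp between heart and muscle and for Ogn between stomach and muscle. Calls lost under it were Chad between heart and muscle, Lum, Dcn and Podn between stomach and muscle, and Prelp and Podn between muscle and tongue. Directions that turned under it were Aspn (-0.049) and Omd (-0.011) in heart, Bgn between stomach and muscle (0.615), Podn between stomach and tongue (-0.00262), and Lum (-0.36), Dcn (-0.33), Bgn (-0.87), Aspn (-0.42) and Omd (-0.032) between muscle and tongue. In the interactions of heart and tongue it gave Lum -0.18, Dcn -0.15, Ogn -0.077, Prelp -0.048 and Aspn -0.0098, and leaving out control replicate 1 of each tissue gave Lum -0.22, Dcn -0.39, Ogn -0.73, Prelp -0.38 and Aspn -0.29. That last setting also turned Ogn between heart and stomach (0.054) and between stomach and tongue (-0.79). Bgn between muscle and tongue was -0.064 with at least 10 counts and -0.026 in the joint fit.

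Without 1 replicate, signs turned in ranges of -0.23 to 0.058 for Dcn, -1.36 to 0.00027 for Chad and -0.29 to 0.14 for Podn in heart (Podn 0.14 without control 2 as well), of -0.36 to 0.10 for Dcn and -0.53 to 0.048 for Podn in muscle (both without SN-011 replicate 2), of -0.48 to 0.30 for Ogn in stomach, and in tongue of -0.38 to 0.27 for Dcn, -0.61 to 0.26 for Bgn, -0.87 to 0.40 for Ogn, -0.38 to 0.60 for Aspn, -0.18 to 0.94 for Omd and -0.15 to 0.74 for Podn. In control tissue pairs they turned for Ogn (-0.42 to 0.30) and Aspn (-0.13 to 0.58) between heart and stomach, Omd between heart and muscle (-0.069 to 0.43), Chad between heart and tongue (-0.11 to 0.69), Bgn (-0.54 to 0.14) and Aspn (-0.17 to 0.42) between stomach and muscle, Fmod (-0.94 to 0.26), Bgn (-0.30 to 0.025), Aspn (-0.057 to 1.36) and Podn (-0.14 to 0.40) between stomach and tongue, and Bgn between muscle and tongue (-0.43 to 0.57). Over all alternatives of the tissue pairs, 33 values of members lost their call and 18 gained one.

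The replicate block, which uses the replicate number as a pairing, gave 242 genes in heart, 181 in stomach, 0 in muscle and 0 in tongue, and 308, 0 and 66 in the interactions of heart and stomach, heart and tongue, and stomach and tongue. With the block Aspn in tongue was 0.088, Chad between heart and stomach 0.11 and Lum between heart and tongue -0.011, and Prelp between stomach and muscle passed (adjusted p = 0.0447). It changed no other call of a member.

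With 3 samples a group, Omd and Chad near 1 CPM rest on few counts, and because control replicate 1 of each tissue had at least 3060 counts of Xist and the other samples at most 20, sex was not balanced between the groups.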
